A study of Mus musculus with 61 samples.

Results

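The replication-dependent histone genes are the rows of the deposited count table whose symbol begins with Hist1h, Hist2h, Hist3h or Hist4h, and 33 of the 19462 genes in the table meet that rule. They carry 32 symbols, because Hist2h2bb stands on 2 gene IDs. By class, taken from the symbol, 4 rows are linker histone H1, 5 are H2A, 11 are H2B, 6 are H3 and 7 are H4. Among the H2B rows, the GENCODE annotation lists Hist3h2bb-ps as a processed pseudogene and 1 of the Hist2h2bb rows as a lincRNA. By cluster, 22 lie in the Hist1 cluster on chromosome 13, 8 in the Hist2 cluster on chromosome 3, 2 in Hist3 on chromosome 11 and 1 is Hist4h4 on chromosome 6.

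RNA was measured in skeletal muscle of 8 inbred strains that founded the Diversity Outbred mouse population. There were 61 libraries: 8 from each of the strains labelled 129, AJ, B6, NZO and WSB, and 7 from each of those labelled Cast, NOD and PWK. Every library carried the diet label 45percent fat and a remark on keeping the mice on a high-fat, high-sugar diet, and no strain or diet was labelled as a control. The labels name no age, sex, transgene or deletion. Nothing in them says that libraries sharing a strain are from different mice, so p-values cover library-to-library spread only, which may be technical. A strain is 1 inbred genotype, so a difference between strains cannot be tied to any 1 allele. In bulk tissue, fewer cells of a type and less RNA per cell cannot be told apart.

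Replication-dependent histone genes supply the core histones H2A, H2B, H3 and H4 and linker histone H1 for new chromatin in S phase, the part of the cell cycle in which DNA is copied. Most have no intron, and their mature mRNAs end just after a short stem-loop in place of a poly(A) tail. Stem-loop binding protein (Slbp) holds that structure, and the U7 small nuclear ribonucleoprotein directs the cut behind it. Some of these genes also give polyadenylated transcripts that run past the stem-loop, which are known from cells that have stopped dividing, such as muscle fibres. Libraries made from poly(A)-selected RNA, as these were, hold mainly that second kind, so the levels below are not the total output of the genes.

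The stem-loops of the members that the results turn on are shown here, because they separate the H4 genes from all other classes. They also mark where the mRNAs without a poly(A) tail end, while the polyadenylated transcripts run on past them. Each line is read 5′ to 3′ on the strand of the gene from GENCODE release M21 transcripts (GRCm38), and capitals mark the 16 bases of the stem-loop.
Hist1h1c (chr13:23739507-23739532): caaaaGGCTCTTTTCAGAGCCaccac
Hist1h1e (chr13:23621777-23621802): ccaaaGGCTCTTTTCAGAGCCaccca
Hist2h2aa1 (chr3:96246027-96246052): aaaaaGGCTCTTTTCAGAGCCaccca
Hist2h2aa2 (chr3:96239779-96239804): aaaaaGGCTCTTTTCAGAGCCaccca
Hist3h2a (chr11:58955167-58955192): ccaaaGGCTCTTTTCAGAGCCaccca
Hist1h2be (chr13:23585526-23585551): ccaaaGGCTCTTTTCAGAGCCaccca
Hist2h3c2 (chr3:96238480-96238505): acaaaGGCTCTTTTCAGAGCCaccac
Hist1h3f (chr13:23544927-23544952): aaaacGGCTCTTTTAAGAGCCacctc
Hist1h4i (chr13:22040961-22040986): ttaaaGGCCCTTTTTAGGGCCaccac
Hist2h4 (chr3:96262934-96262959): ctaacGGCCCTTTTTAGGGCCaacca
Hist1h4h (chr13:23531453-23531478): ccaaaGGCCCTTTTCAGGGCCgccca
Hist4h4 (chr6:136803993-136804018): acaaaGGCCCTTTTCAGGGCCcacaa

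A search of the longest transcript of each gene, on its own strand, for a 16-base run of GG, 3 bases of any kind, TT, any base, T, any base, A, 3 of any kind and CC, with its 6-base arms exactly paired, found the stem-loop in 24 of the 32 members that GENCODE M21 holds. It was in 68 of 18711 genes searched (0.363%). The 24 members share 6 distinct 16-base sequences. All 7 H4 members carried an arm that reads ggccct, and the 17 other members carried ggctct. The annotated transcript ran on for 100 bases or more behind the stem-loop in 15 of the 24 members, and for fewer in 9. It ran on for 840 bases in Hist1h1c, 330 in Hist1h4i, 1643 in Hist3h2a, 1861 in Hist1h2be and 4884 in Hist1h1d, against 46 in Hist1h4h and 35 in each of Hist2h2aa1 and Hist2h2aa2. The poly(A) signal AATAAA stood in the last 50 bases of 5 members (Hist1h1c, Hist2h2be, Hist2h4, Hist3h2a and Hist4h4), against 58.8% of all genes searched. No match says only that these letters are not in that window. Hist1h2bc, Hist2h2be and both Hist2h2bb rows had no stem-loop in their longest transcript.

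Total counts ran from 17.1 M to 65.2 M per library (median 33.7 M). In library B6_5 the ribosomal RNA gene Rn18s-rs5 held 46.3% of all counts, against at most 9.76% in the other libraries. Libraries Cast_5 and Cast_6 stood apart from the other 5 Cast libraries in many histone genes, and results that rest on them are given with and without them. The 10 muscle markers examined summed to 99373 to 163408 CPM (the count scaled to a TMM-adjusted library size) in every library, Acta1, Ckm and Myh4 among them. Over the 61 libraries, lymphocyte markers summed to 3.65 to 285 CPM, erythroid markers to 64.9 to 693 CPM, macrophage and neutrophil markers to 43.5 to 247 CPM, satellite cell markers to 30.3 to 72.6 CPM and hepatocyte markers to 3.98 to 6117 CPM. Cd3d, Hemgn, Mpo and Elane are not among the genes analysed here.

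Per kilobase of annotated exon, Hist1h1c stood at 63.0 CPM as the mean of the 8 strain means, Hist2h2aa1 at 29.9, Hist1h2bc at 28.0, Hist1h4h at 15.01, Hist1h4i at 11.4 and Hist2h2aa2 at 8.49. Every other member stood lower on this scale, Hist1h2bh apart, whose deposited ID has no length here. A filter on low counts kept 19 of the 33 members. The 14 others had mean levels from 0.0460 to 0.180 CPM. Of the 19 kept, 16 have the stem-loop, 11 of them with 100 bases or more behind it, and 5 have AATAAA near the end. Of the 14 not kept, 8 have the stem-loop, 4 of them with 100 bases or more behind it, and 0 have AATAAA.

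All 19 tested members differed among the 8 strains (edgeR quasi-likelihood F test, adjusted p below 0.05), as did 85.5% of all 16682 genes tested, so the count does not set the members apart. With no filter on low counts, 28 of the 33 differed, against 78.1% of the genes in the whole table. In that unfiltered fit the median distance between a gene's lowest and highest strain was 2.51 on the log2 scale over the 33 members and 1.07 over all genes, and low counts widen this distance. On the log2(CPM + 0.5) scale, 94.9% of the variance of Hist2h2aa2 lay between strains, 91.6% of that of Hist2h2aa1, 89.8% of that of Hist1h4i and 83.2% of that of Hist1h2be. The lowest share of a tested member was 27.9%, in Hist4h4.

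**Figure D1:**
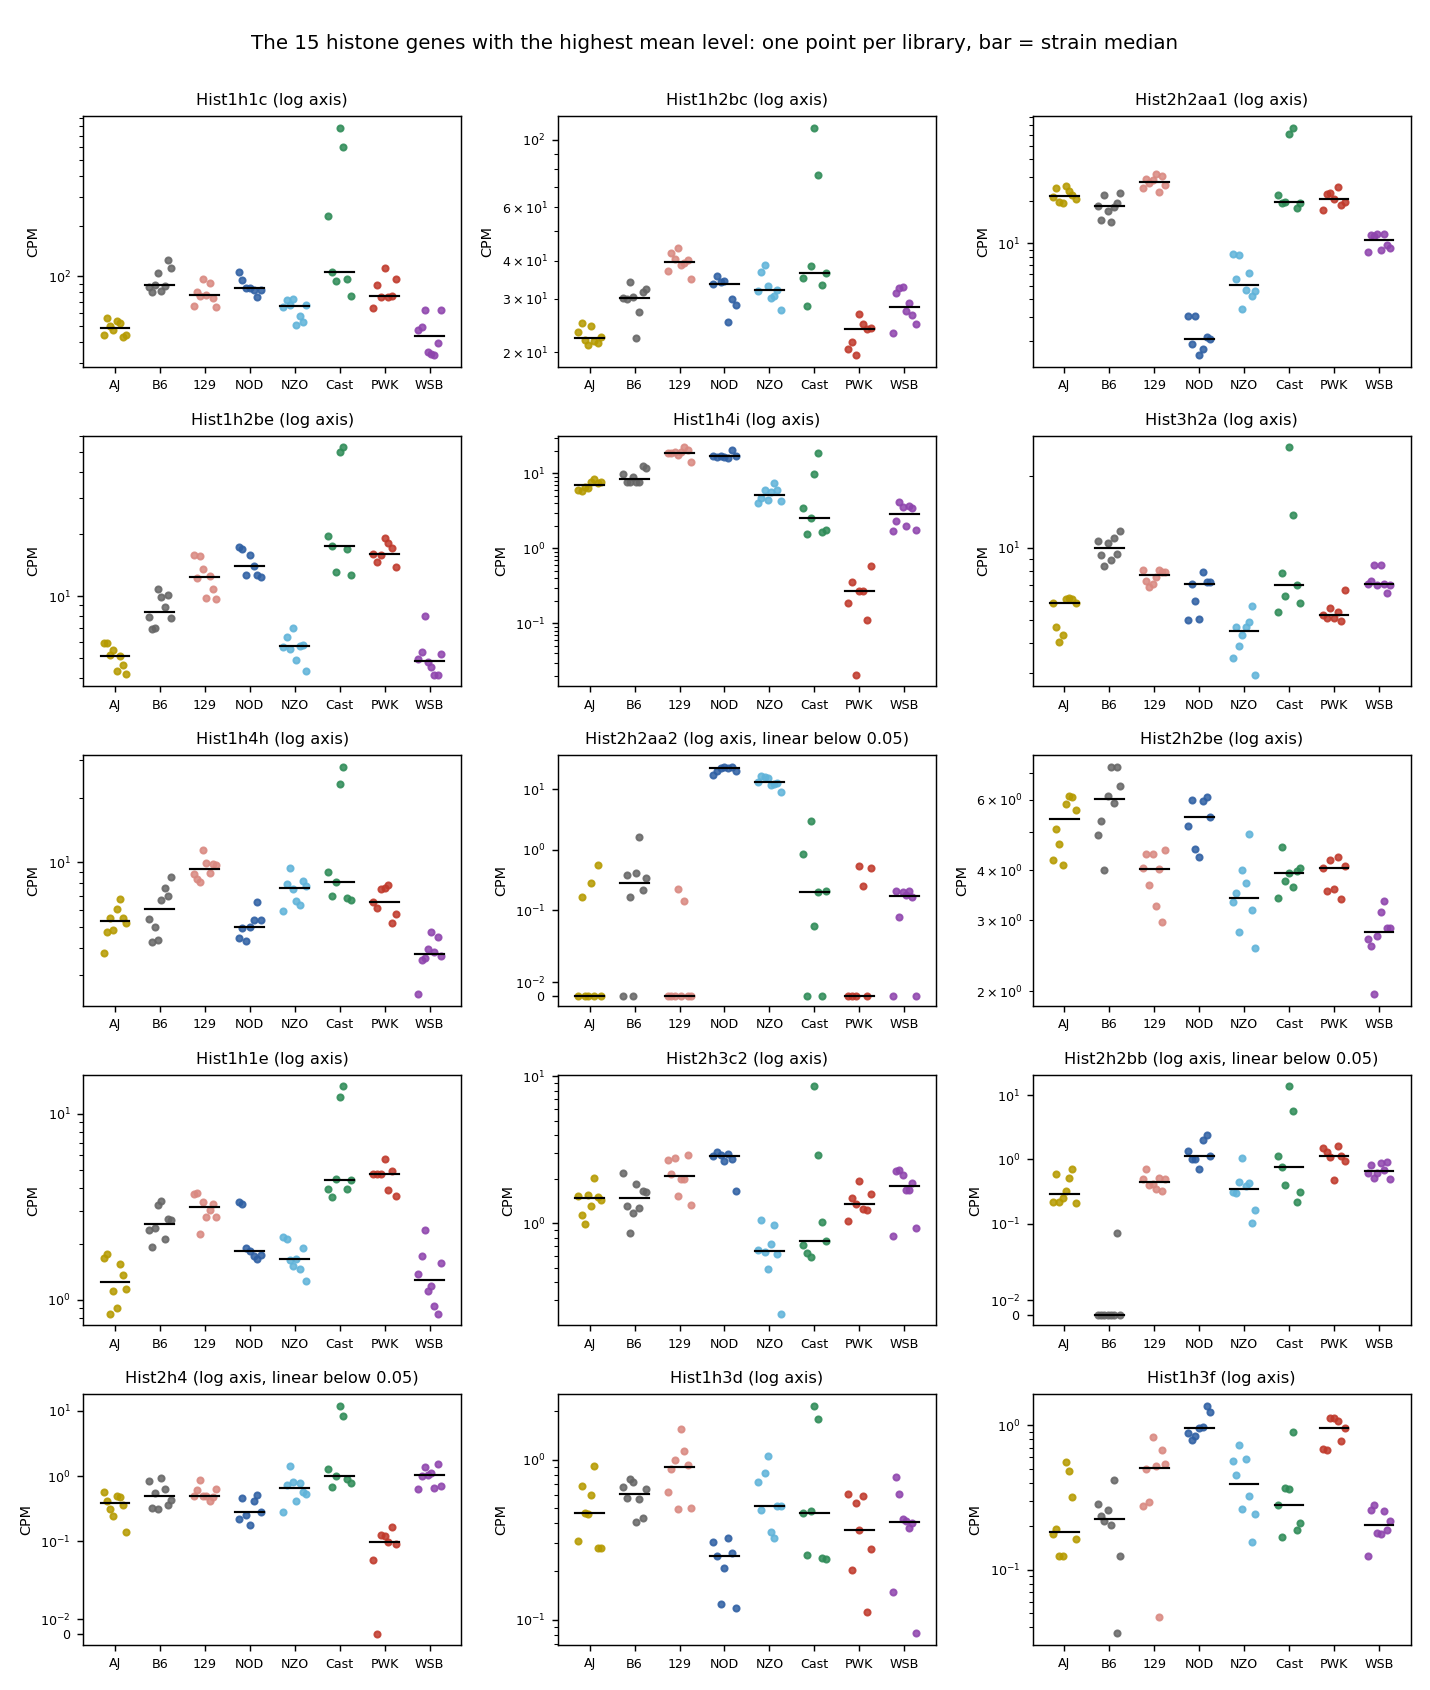
Level of the 15 members with the highest mean, in CPM on log axes, with 1 point per library and a bar at each strain's median. All PWK points of Hist1h4i are under those of the 54 other libraries, Hist2h2aa1 and Hist2h2aa2 change places in NOD and NZO, and the highest points of 11 of the panels are Cast_5 or Cast_6.

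Each strain was then set against the mean of the other 7, to ask which histone genes stand apart in it. AJ had 10 of the 19 tested members called, against 31.7% of all genes, with 2 higher (16.8% of all genes) and 8 lower (14.9%). B6 had 7 called (26.2%), with 5 higher (15%) and 2 lower (11.2%). The 129 strain had 7 called (25.6%), with 6 higher (14.2%) and 1 lower (11.4%). NOD had 10 called (21.6%), with 8 higher (11.9%) and 2 lower (9.79%). NZO had 8 called (27.3%), with 1 higher (14.6%) and 7 lower (12.7%). Cast had 12 called (61.8%), with 12 higher (33.8%) and 0 lower (27.9%), a total near the background share. PWK had 12 called (41%), with 6 higher (20.6%) and 6 lower (20.3%). WSB had 12 called (38.3%), with 3 higher (21.4%) and 9 lower (17%). The 8 contrasts share libraries, so their counts are not independent. In the wild-derived strains (Cast, PWK and WSB) against the 5 classical strains, 8 members were called, against 58.7% of all genes, with 5 higher and 3 lower, against 32.3% and 26.5%. Without Cast_5 and Cast_6 that split became 4 higher and 7 lower, against 29.8% and 27.8% (57.6% in either direction). Without the same libraries 129 had 9 higher and 1 lower, against 16.9% and 12.1% of all genes, and NZO had 4 and 7, against 16.9% and 13.7%. AJ then had 3 and 7 (18.1% and 16.8%), B6 6 and 2 (16.3% and 12.8%) and NOD 8 and 3 (14.8% and 10.4%). PWK had 7 and 6 (23.6% and 20.3%), and WSB 5 and 9 (22.3% and 18.7%).

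**Figure D2:**
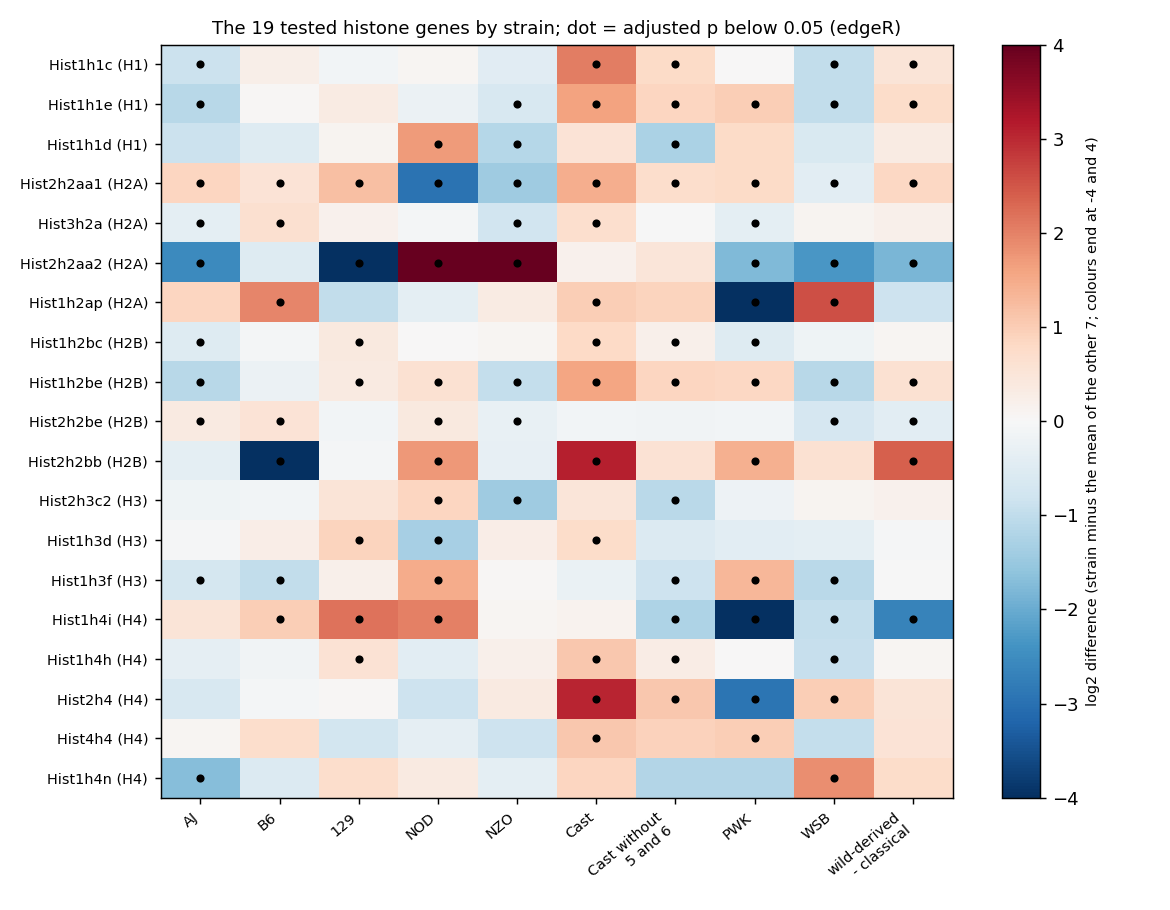
Log2 difference between each strain and the mean of the other 7 for the 19 tested members, ordered by class, with a second Cast column without Cast_5 and Cast_6 and a last column for the wild-derived minus the classical strains. A dot marks an adjusted p below 0.05, and the 12 dots of the Cast column are all on higher values while the 11 of the column beside it are on 7 higher and 4 lower values.

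Linker histone H1 binds the DNA between nucleosomes. Hist1h1c (histone H1.2; GRCm38 chr13:23738808-23740367) ran from 43.0 to 56.1 CPM in AJ (median 48.6), 79.6 to 125 in B6 (88.1), 64.98 to 96.4 in 129 (76.35), 74.6 to 106 in NOD (84.9), 50.6 to 73.1 in NZO (65.8), 64.1 to 112 in PWK (75.8) and 33.3 to 62.6 in WSB (43.4). The AJ range lay below that of every other strain but NZO and WSB. Hist1h1c was lower in AJ by a log2 difference of -0.87 ± 0.21 (SE, adjusted p = 0.00102, edgeR) and in WSB by -0.99 ± 0.21 (adjusted p = 0.000174). In Cast it ran from 76.1 to 787 CPM (median 107), which is taken up further on.

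Hist1h1e (histone H1.4; chr13:23620629-23622558) was lowest in AJ, at 0.840 to 1.77 CPM (median 1.25), and in WSB, at 0.841 to 2.37 CPM (1.28). It stood at 1.27 to 2.17 in NZO (1.65), 1.65 to 3.38 in NOD (1.82), 1.92 to 3.38 in B6 (2.57), 2.25 to 3.75 in 129 (3.16) and 3.62 to 5.69 in PWK (4.73), and at 3.55 to 14.1 in Cast (4.39). No library of AJ, WSB or NZO reached the lowest library of PWK or Cast. The differences were -1.11 ± 0.19 in AJ (adjusted p = 3.45e-06, edgeR), -0.99 ± 0.18 in WSB (1.47e-05), -0.64 ± 0.18 in NZO (0.00478) and 0.99 ± 0.16 in PWK (1.1e-06). It overlaps Hist1h2be on the same strand, so reads in the shared stretch can have been counted to either.

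Hist1h1d (histone H1.3), at 1.11 ± 0.247 CPM in NOD (SD, n = 7) and between 0.193 and 0.630 as the mean of each other strain, was higher in NOD by 1.71 ± 0.32 (adjusted p = 3.04e-05, edgeR). It was lower in NZO by -1.15 ± 0.40 (0.0231), a call that ended without NZO_1 (-1.02, adjusted p = 0.0611) or NZO_8 (-0.98, 0.0663). Hist1h1b, the remaining H1 member, did not pass the filter.

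H2A forms the nucleosome core with H2B. Hist2h2aa1 (chr3:96245497-96246082, plus strand) and Hist2h2aa2 (chr3:96239749-96240276, minus strand) lie as an inverted pair, and their transcripts are identical over the 528 bases that align. Hist2h2aa1 stood at 1.58 to 3.03 CPM in NOD (median 2.06) and 3.38 to 8.46 in NZO (5.07). In the other strains it stood at 8.68 to 11.8 in WSB (10.6), 14.1 to 23.0 in B6 (18.4), 17.5 to 25.3 in PWK (20.8), 18.0 to 67.5 in Cast (19.7), 19.6 to 25.6 in AJ (22.0) and 23.3 to 31.2 in 129 (27.7). No NOD or NZO library reached the lowest library of another strain.

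Hist2h2aa2 showed the opposite order, with 16.8 to 23.5 CPM in NOD (median 22.0) and 9.07 to 16.5 in NZO (13.03), against at most 3.02 CPM in any library of the other strains. Of the counts on the pair, Hist2h2aa2 held 84.7% to 93.7% in NOD libraries and 61.1% to 81.7% in NZO libraries, and at most 13.3% elsewhere. The single-gene differences in NOD were -2.96 ± 0.20 for Hist2h2aa1 (adjusted p = 3.04e-18, edgeR) and 6.01 ± 0.38 for Hist2h2aa2 (1.09e-19). In NZO they were -1.42 ± 0.16 (4.89e-10) and 5.25 ± 0.38 (2.57e-17).

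The sum of the pair was 19.8 to 25.6 CPM in NOD (median 23.7) and 13.6 to 24.2 in NZO (18.3). Both ranges overlap those of B6 (14.5 to 23.3), AJ (19.6 to 25.9) and PWK (17.5 to 25.6). Counted as 1 gene, the pair differed by 0.17 ± 0.13 in NOD (adjusted p = 0.404, edgeR) and by -0.17 ± 0.13 in NZO (0.352), so neither call held. The calls in AJ (0.11 ± 0.13, adjusted p = 0.55) and PWK (0.02 ± 0.14, 0.921) and the wild-derived contrast (-0.17 ± 0.09, 0.0927) also ended. In B6 the call ended as well (-0.18 ± 0.13, 0.348). Calls remained in 3 strains. WSB, with 8.68 to 11.98 CPM (median 10.7), was lower by -1.14 ± 0.14 (1.66e-09). In 129 the pair was higher by 0.45 ± 0.12 (0.00466), and in Cast by 0.75 ± 0.13 (1.01e-06). In Cast the sum ran from 18.0 to 67.7 CPM (median 22.7). Hist2h2aa1 alone was at 61.1 CPM in Cast_5 and 67.5 in Cast_6, against 18.0 to 22.2 in the other Cast libraries. Whether the Cast call of the pair holds without Cast_5 and Cast_6 was not tested.

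**Figure D3:**
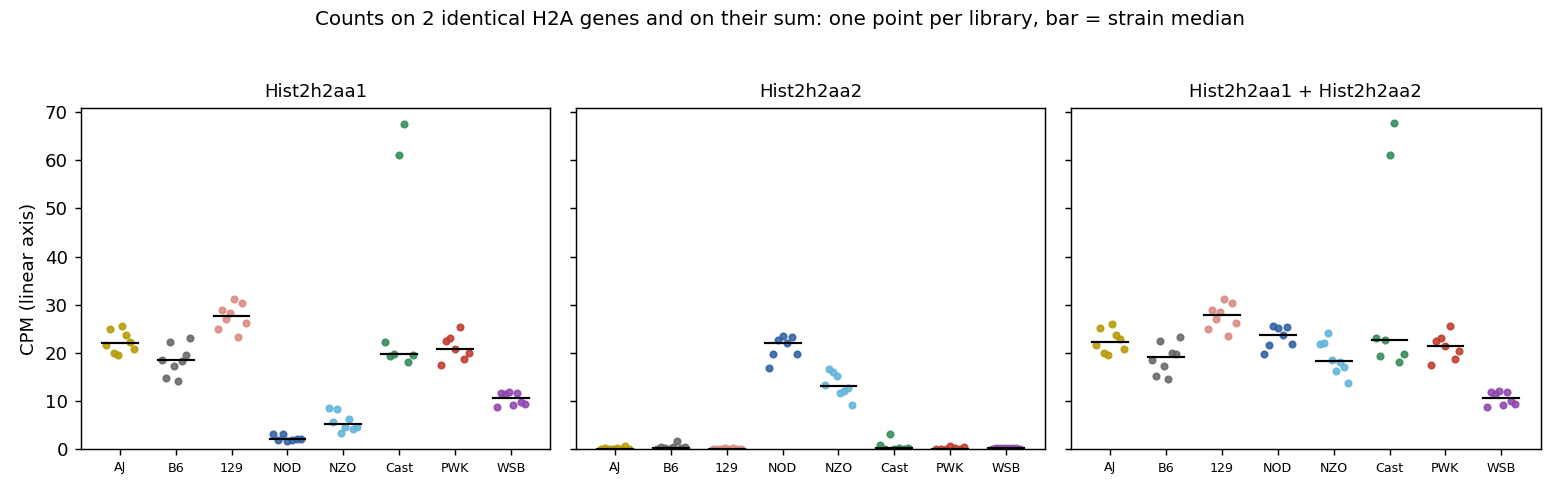
CPM on a linear axis for Hist2h2aa1, for Hist2h2aa2 and for their sum, with 1 point per library and a bar at each strain's median. Counts sit on Hist2h2aa2 in NOD and NZO and on Hist2h2aa1 in the other 6 strains, and the sum in NOD and NZO (medians 23.7 and 18.3) falls among the other strains.

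Another row, Gm20634, overlaps Hist2h2aa1 on the same strand and holds the same 529 bases, and was at 3.98 ± 1.21 CPM in NZO (SD, n = 8), 5.22 ± 0.576 in PWK (n = 7), 5.34 ± 1.26 in NOD (n = 7), 6.82 ± 1.68 in WSB (n = 8), 7.24 ± 1.002 in AJ (n = 8), 9.68 ± 2.08 in B6 (n = 8) and 12.4 ± 2.06 in 129 (n = 8). Its Cast median was 4.996 CPM, so PWK and Cast, where Hist2h2aa1 was high, stood near NOD in this row. Gm20632, on the strand opposite Hist2h2aa2, was at 9.42 ± 1.06 CPM in NOD and 3.03 ± 0.514 in NZO. Whether strand was used in counting is not given in the sources used here, so reads of the pair and of the genes opposite to it cannot be told apart.

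Hist3h2a (chr11:58954685-58956830), an H2A gene outside the large clusters, ran from 8.39 to 11.8 CPM in B6 (median 9.98) and 2.94 to 5.71 in NZO (4.48), with no overlap. It was higher in B6 by 0.63 ± 0.13 (adjusted p = 0.000119, edgeR) and lower in NZO by -0.76 ± 0.14 (3.75e-05). The gene overlaps Trim17 on the same strand, whose strain means ran from 0.153 ± 0.0852 CPM in NZO (SD, n = 8) to 0.902 ± 0.339 in AJ (n = 8), with B6 at 0.740 ± 0.339 (n = 8) and PWK at 0.855 ± 0.410 (n = 7). Hist3h2a was called lower in AJ (-0.39 ± 0.14, adjusted p = 0.0274, edgeR) and PWK (-0.38 ± 0.15, 0.0368).

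Hist1h2ap had 0 counts in all 7 PWK libraries, while WSB had 146 counts over 8 libraries and B6 had 78. Against a floor of 3 counts over the PWK group, the level was at least 36.7-fold higher in WSB, 26.6-fold in B6 and 4.08-fold in 129. WSB libraries ran from 0.118 to 0.693 CPM (median 0.424), and the gene was called higher there (2.56 ± 0.41, adjusted p = 1.25e-06, edgeR). The mean of the other strains includes PWK at 0 counts, so the size of this difference depends on how the fit treats 0. The strains besides WSB and PWK had means from 0.0463 CPM in 129 to 0.290 in B6, against 0.444 in WSB. It has 8 near-identical copies in GENCODE, none of them among the genes analysed here.

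H2B gave the largest number of rows. Hist1h2bc (chr13:23684199-23692908) ran from 21.1 to 24.9 CPM in AJ (median 22.2) and 19.5 to 26.8 in PWK (23.9), below the whole 129 range of 34.8 to 44.1 (39.6). The medians of the other strains lay between, from 28.2 in WSB to 36.3 in Cast. It was lower in AJ (-0.53 ± 0.12, adjusted p = 0.000253, edgeR) and PWK (-0.51 ± 0.12, 0.000603) and higher in 129 (0.39 ± 0.11, 0.00459). It is near-identical to Hist1h2bg, Hist1h2bj and Hist1h2bq, which link it to Hist1h2be and Hist1h2bb. The sum of these 6 H2B rows was not called in PWK (-0.11 ± 0.12, 0.508) and was called in AJ (-0.69 ± 0.12, 6.94e-06) and 129 (0.35 ± 0.11, 0.0151). Hist1h2be is not a direct copy of Hist1h2bc and was higher in PWK by 0.82 ± 0.14. Its PWK mean was 16.4 CPM, against 23.01 for Hist1h2bc. Of the direct copies measured, Hist1h2bg had the highest PWK mean, at 0.222 CPM. The sum therefore cannot show whether the Hist1h2bc calls depend on copies of that gene.

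Hist1h2be (chr13:23583670-23621124) formed a low and a high set of strains. AJ (4.17 to 5.91 CPM, median 5.13), WSB (4.14 to 8.02, 4.86) and NZO (4.34 to 6.997, 5.69) were low. B6 (6.92 to 10.8, 8.36) lay between, and 129 (9.70 to 15.8, 12.4), NOD (12.3 to 17.4, 13.9), PWK (13.8 to 19.2, 16.03) and Cast (12.7 to 53.0, 17.5) were high. Every library of the 4 high strains lay above every library of AJ, WSB and NZO. The log2 difference was -1.11 ± 0.16 in AJ (adjusted p = 6.91e-08, edgeR), -1.10 ± 0.16 in WSB (6.11e-08), -0.94 ± 0.15 in NZO (2.58e-06) and 0.82 ± 0.14 in PWK (2.21e-06). In the same sum of 6 linked H2B rows, of which Hist1h2bg and Hist1h2bq are its direct copies, the difference was -0.69 ± 0.12 in AJ (6.94e-06), -0.38 ± 0.12 in WSB (0.0083), -0.17 ± 0.12 in NZO (0.311) and -0.11 ± 0.12 in PWK (0.508). The sum was thus not called in NZO or PWK, and its PWK value had the other sign. Hist1h2bc, not a direct copy of Hist1h2be, was the largest row of the sum. Its mean was 32.3 CPM, against 11.8 for Hist1h2be, 0.0752 for Hist1h2bg and 0.180 for Hist1h2bq. The sum therefore cannot show whether the Hist1h2be calls depend on its copies.

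Hist2h2be (chr3:96221119-96223738), which has a poly(A) signal and no near-identical copy, had the smallest log2 distance between strains of the 4 tested H2B rows. It ran from 1.96 to 3.36 CPM in WSB (median 2.81) and 4.01 to 7.27 in B6 (6.02), which do not overlap. It was lower in WSB (-0.68 ± 0.09, adjusted p = 2.03e-08, edgeR) and higher in B6 (0.56 ± 0.08, 2.93e-07), NOD (0.40 ± 0.09, 0.000466) and AJ (0.36 ± 0.08, 0.000507). In Cast it was 3.41 to 4.57 CPM, with Cast_5 (3.95) and Cast_6 (3.65) inside that range.

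Hist2h2bb (the row ENSMUSG00000050936, a lincRNA of 2 exons in GENCODE, chr3:96269721-96279001) had 2 counts in B6, both in 1 of the 8 libraries, and 105 to 725 counts in every other strain. The ratio to B6 was 44.0 in AJ, with a 95% counting interval of 11.9 to 368, and 141 in PWK (38.6 to 1170). These intervals cover counting error only. Medians outside B6 ran from 0.287 CPM in AJ to 1.15 in NOD. The gene Gm20628 on the opposite strand had a median of 0.0618 CPM in B6 and 0.300 to 0.789 elsewhere.

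H3 and H4 form the centre of the nucleosome. Hist2h3c2 (chr3:96238108-96239127) ran from 0.243 to 1.05 CPM in NZO (median 0.652) and 1.66 to 3.04 in NOD (2.89), with no overlap. It was lower in NZO by -1.42 ± 0.29 (adjusted p = 9.75e-05, edgeR) and higher in NOD by 0.85 ± 0.25 (0.00886). It shares 669 bases with Gm20634 at 99.9% identity. The sum of the rows linked through Gm20634, Hist2h2aa1 and Hist2h2aa2 included, differed by 0.04 ± 0.16 in NOD (0.915), where it was not called. In NZO the sum differed by -0.43 ± 0.16 (0.0364). Hist2h2aa1 and Hist2h2aa2 are not copies of Hist2h3c2, and their means were 17.5 and 4.48 CPM, against 1.73 for Hist2h3c2. The sum therefore cannot show whether the Hist2h3c2 calls depend on its copies.

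Hist1h3f (chr13:23544052-23545312) was at 0.792 to 1.36 CPM in NOD (median 0.956) and 0.674 to 1.12 in PWK (0.950), and at 0.124 to 0.280 in WSB (0.204). It was higher in NOD (1.47 ± 0.24, adjusted p = 2.62e-06, edgeR) and PWK (1.31 ± 0.24, 8.62e-06) and lower in WSB (-1.09 ± 0.29, 0.00173) and B6 (-0.98 ± 0.29, 0.0093). Hist1h3d was lower in NOD (0.119 to 0.323 CPM, -1.32 ± 0.35, 0.00416), the opposite direction to Hist1h3f. That call ended with the proliferation sum as a covariate (-1.02, 0.113). The 5 H3 genes of the Hist1 cluster that are linked by near-identical transcripts were also added together. Their sum differed by 0.18 ± 0.21 in NOD (0.605), -0.10 ± 0.21 in B6 (0.797) and 0.49 ± 0.20 in PWK (0.0501), and was called in none of these. Hist1h3d, the largest row of the sum (mean 0.551 CPM, against 0.480 for Hist1h3f), is not a direct copy of Hist1h3f. The sum therefore cannot show whether the calls of either gene depend on its copies. The sum was lower in WSB by -0.71 ± 0.21 (0.00671).

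Hist1h3d was also higher in 129 (0.489 to 1.56 CPM, 0.90 ± 0.27, adjusted p = 0.00814, edgeR). That call ended without library 129_6 (0.73, 0.0573) and with the lymphocyte marker sum as a covariate (0.67, 0.139). The sum of the linked H3 genes was not called in 129 (0.45, 0.0811).

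Hist1h4i (chr13:22040636-22041362), an H4 gene with no near-identical copy, ran from 14.2 to 22.5 CPM in 129 (median 19.01) and 15.9 to 20.5 in NOD (17.0), which overlap each other. B6 (7.58 to 12.4, 8.38) and AJ (5.77 to 8.39, 7.03) overlap, as do AJ and NZO (4.06 to 7.42, 5.20). WSB stood at 1.73 to 4.18 (2.90) and overlaps NZO only at its upper end, and Cast ran from 1.56 to 18.6 (2.51).

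In PWK, Hist1h4i ran from 0.0206 to 0.583 CPM (median 0.272), and its highest library did not reach the lowest of the 54 others. The difference was -4.92 ± 0.38 in PWK (adjusted p = 1.6e-16, edgeR), 2.16 ± 0.19 in 129 (1.6e-13), 2.01 ± 0.21 in NOD (1.04e-11), 0.98 ± 0.21 in B6 (0.000304) and -0.96 ± 0.25 in WSB (0.00161). Whether reads of PWK map to the reference copy of the gene as well as those of other strains was not tested.

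Hist2h4 (chr3:96261682-96263311) was also lowest in PWK, at 0 to 0.167 CPM (median 0.0988), with the highest PWK library above the lowest AJ library (0.141) and below every library of the other 6 strains. It was lower there by -2.92 ± 0.46 (adjusted p = 4.4e-07, edgeR). Hist1h4h (chr13:23531050-23531519) was not called in PWK (0.01 ± 0.16, 0.962). It was at 2.42 to 4.75 CPM in WSB (median 3.73) and 8.07 to 11.4 in 129 (9.30), lower in WSB by -0.93 ± 0.16 (3.93e-06) and higher in 129 by 0.57 ± 0.14 (0.00142). The summed CPM of the 7 H4 rows was 29.4 ± 2.41 in 129 (SD, n = 8), 23.1 ± 2.35 in NOD (n = 7), 17.0 ± 3.47 in B6 (n = 8), 13.9 ± 2.11 in NZO (n = 8), 13.1 ± 1.75 in AJ (n = 8), 8.41 ± 1.81 in WSB (n = 8) and 7.47 ± 0.989 in PWK (n = 7). It was 22.8 ± 20.3 in Cast (n = 7).

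Hist1h4n was higher in WSB (1.87 ± 0.43, adjusted p = 0.000445, edgeR) at 0 to 1.02 CPM. It was lower in AJ (-1.69 ± 0.65, 0.0387) at 0 to 0.159 CPM, and that call ended without any 1 of AJ_1, AJ_2, AJ_3, AJ_5 and AJ_8 (-1.51 to -1.58, adjusted p from 0.0741 to 0.0839) and without Cast_5 and Cast_6 (-1.41, 0.0598). Hist4h4 was higher in PWK (0.99 ± 0.38, 0.0293), a call that ended without PWK_2 (0.80, 0.123) or PWK_4 (0.86, 0.0903).

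In many members the Cast libraries fell apart into 5 and 2, less cleanly so in Hist1h1c, where Cast_1 also lay above the 54 libraries of the other strains. Hist1h1c was at 231, 107, 93.5, 96.1 and 76.1 CPM in Cast_1, Cast_2, Cast_3, Cast_7 and Cast_8, and at 787 in Cast_5 and 600 in Cast_6, while the other 54 libraries reached at most 125. Cast_5 and Cast_6 lay above all 54 libraries of the other strains in Hist1h1c, Hist1h2bc, Hist2h2aa1, Hist1h2be, Hist3h2a, Hist1h4h, Hist1h1e, Hist2h2bb, Hist2h4 and Hist1h3d. Hist2h4 was at 11.9 and 8.39 CPM in the pair of libraries and at 0.677 to 1.27 in the other 5. Hist1h2be was at 50.2 and 53.0 CPM, against 12.7 to 19.6 in the other 5.

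Cast_5 and Cast_6 were the top 2 of the 61 libraries in 13 of the 33 members, against 10.2% of all 19462 genes. Cast_5 was the highest library in 14 members and Cast_6 in 5, against 8.03% and 10.7% of all genes. Hist1h4i was at 9.68 and 18.6 CPM, above the 1.56 to 3.47 of the other 5 Cast libraries and below the highest 129 library (22.5). Hist2h2be, at 3.95 and 3.65 CPM, lay inside the range of the other Cast libraries.

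**Figure D4:**
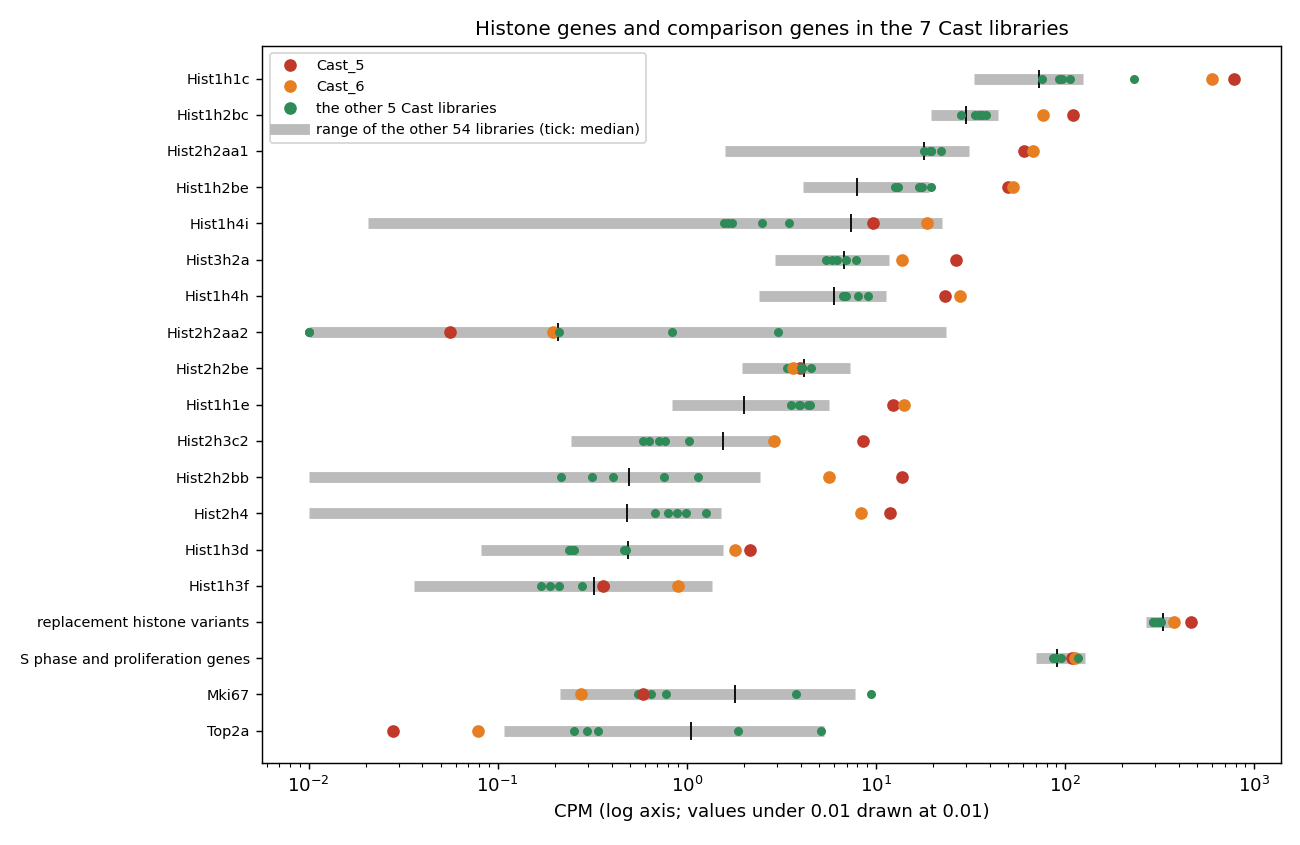
CPM on a log axis in the 7 Cast libraries for the 15 members with the highest mean, for 2 gene lists summed, and for Mki67 and Top2a, with the range of the other 54 libraries as a grey bar. Cast_5 and Cast_6 lie to the right of the grey bar in 10 of the 15 members, and Top2a in both lies to the left of its bar.

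Genes of dividing cells differed among themselves in these libraries. Mki67 was at 0.584 CPM in Cast_5 and 0.275 in Cast_6. Cast_1, Cast_2 and Cast_3 were at 0.650, 0.550 and 0.775 CPM, near Cast_5, while Cast_7 was at 9.40 and Cast_8 at 3.804. Top2a, which untangles DNA in dividing cells, was at 0.0278 and 0.0784 CPM, below the lowest of the 54 libraries of the other strains (0.109). The 20 S phase and proliferation genes summed to 110 CPM in Cast_5 and 113 in Cast_6, within the 69.9 to 128 CPM of the 54 other libraries. Pcna, the replication clamp, was at 29.5 and 24.3 CPM, above the 19.7 CPM that the 54 others reached. Npat, which switches on histone gene transcription, was at 25.7 and 20.0 CPM, against at most 14.7 in the 54 others. In the other Cast libraries Npat ran from 11.1 to 15.6 CPM, with Cast_1 and Cast_2 also above the 54. Slbp was at 6.87 and 5.92 CPM, against 4.01 to 7.80 in the 54. These 5 genes were chosen after their values were seen.

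The 11 replacement histone variants, most of whose mRNAs are polyadenylated, summed to 465 CPM in Cast_5 and 378 in Cast_6, against 269 to 387 in the 54 others. Lymphocyte markers summed to 86.9 and 103 CPM, against a median of 54.3 in the 54 others, and erythroid markers to 84.6 and 64.9 CPM, below the lowest of the 54 (120). In the other Cast libraries the lymphocyte sum ran from 27.6 to 274 CPM. Their erythroid sum ran from 102 to 273 CPM, with Cast_8 also below the 54. The total count was 36.7 M and 26.9 M, and Rn18s-rs5 held 5.64% and 6.35%. With the lymphocyte sum as a covariate 11 members were called higher in Cast and 0 lower, and with the Rn18s-rs5 share 11 and 0, against 12 and 0 without a covariate. The part of the replacement variants, the erythroid markers and the total count was not tested.

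With all 7 libraries, the 4 largest Cast differences were 3.10 ± 0.33 in Hist2h2bb (adjusted p = 4.03e-12, edgeR), 3.06 ± 0.26 in Hist2h4 (3.91e-15), 2.04 ± 0.18 in Hist1h1c (4.23e-15) and 1.60 ± 0.15 in Hist1h1e (2.76e-13). Without Cast_5 and Cast_6, an alternative chosen after seeing the data, 7 members were higher and 4 lower, against 25.9% and 25.7% of all genes (51.6% in either direction). The values became 0.59 ± 0.30 in Hist2h2bb (0.093), 1.09 ± 0.25 in Hist2h4 (0.000196), 0.77 ± 0.13 in Hist1h1c (9.46e-07) and 0.85 ± 0.15 in Hist1h1e (2.47e-06). The Hist1h1c value still includes Cast_1, at 231 CPM, and a fit that also leaves out Cast_1 was not run. Hist1h2be (0.85 ± 0.10, 7.8e-10), Hist2h2aa1 (0.72 ± 0.11, 1.93e-07), Hist1h4h (0.28 ± 0.11, 0.0307) and Hist1h2bc (0.20 ± 0.07, 0.0166) also remained higher. For Hist2h2aa1 the mean of the other strains includes NOD and NZO, where the counts sit on its identical copy Hist2h2aa2. Without Cast_5 and Cast_6, Hist2h2aa1 ran from 18.0 to 22.2 CPM in Cast, inside the ranges of B6 (14.1 to 23.0) and PWK (17.5 to 25.3). Hist3h2a fell back to -0.03 ± 0.10 (0.845).

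In the same 5 libraries Hist1h4i was lower in Cast by -1.23 ± 0.21 (adjusted p = 1.29e-06, edgeR), Hist1h1d by -1.26 ± 0.41 (0.00798), Hist2h3c2 by -1.07 ± 0.22 (4.5e-05) and Hist1h3f by -0.81 ± 0.33 (0.0366). With all 7 libraries these 4 stood at 0.15, 0.55, 0.50 and -0.25, with adjusted p from 0.0856 to 0.603. Without Cast_5 alone, Hist2h2bb was at 1.92 (1.02e-06) and Hist2h4 at 2.34 (5.84e-11).

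B6_5, the library rich in ribosomal RNA, was the highest of all 61 in 5 members, against 10.4% of all genes, a share near that background. Hist1h4c was at 2.56 CPM there, Hist1h4d at 1.43, Hist4h4 at 1.74, Hist2h2be at 7.27 and Hist2h2ac at 0.307. These rest on 25, 14, 17, 71 and 3 counts, and Hist2h2be was at 7.24 CPM in B6_7. Rn18s-rs5 stood at 1110950 CPM in B6_5, so CPM on its TMM-adjusted size run higher than on its raw total. Of RNAs that carry no poly(A) tail, Rn7sk was at 429 CPM in B6_5 and at most 65.2 in the other 60 libraries, Rmrp at 60.7 against 2.40, Rpph1 at 40.2 against 0.929 and Scarna2 at 5.63 against 0.586. Hist1h1c was at 80.8 CPM in B6_5, inside the B6 range. The part of poly(A) selection in the level of these members was not tested. Without B6_5, 7 members were called in B6, as with it.

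**Figure D5:**
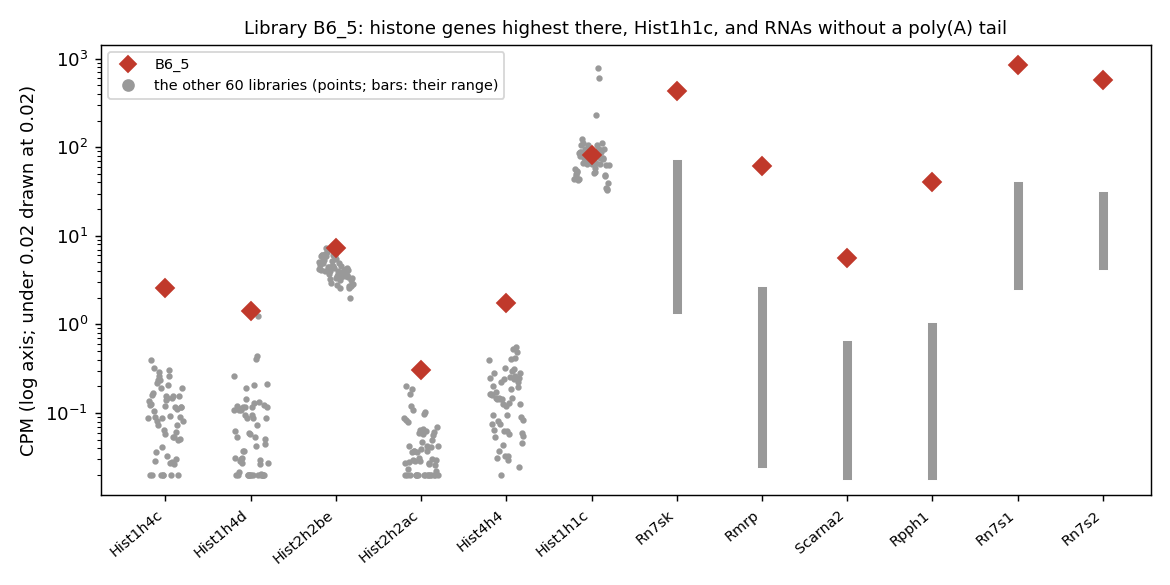
CPM on a log axis in B6_5 (diamonds) and the other 60 libraries (points, or bars for their range) for the 5 members highest in B6_5, for Hist1h1c, and for 6 RNAs that lack a poly(A) tail. All but Hist1h1c stand at the top in B6_5, Rn7sk at 429 CPM against at most 65.2.

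The genes that work with the histones were read from lists, none of whose counts sets them apart from the 85.5% of all genes that differed among strains. Of the 11 replacement variants, which are also made outside S phase, 9 differed. H2afv ran from 16.6 ± 1.04 CPM in NZO (SD, n = 8) to 27.3 ± 1.02 in NOD (n = 7), H2afy (macroH2A) from 26.4 ± 2.41 in WSB (n = 8) to 44.4 ± 3.32 in 129 (n = 8), and H1fx from 0.140 ± 0.0843 in 129 to 0.953 ± 0.234 in PWK (n = 7). H2afj and H2afy2 were not called (adjusted p = 0.176 and 0.213, edgeR). Their median distance between the lowest and highest strain was 0.72 on the log2 scale, against 0.91 over all genes tested.

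Of 18 tested genes of histone transcription, stem-loop binding and mRNA 3′ end processing, 14 differed, with a median distance of 0.41. Cpsf3, the endonuclease that cuts the pre-mRNA, ran from 12.1 ± 0.986 CPM in AJ (SD, n = 8) to 20.1 ± 2.502 in Cast (n = 7). Sympk, its scaffold, ran from 76.6 ± 5.48 in 129 (n = 8) to 108 ± 12.3 in NZO (n = 8), and Ncbp2, a cap-binding subunit, from 10.5 ± 0.913 in NZO to 17.3 ± 1.06 in PWK (n = 7). Lsm11, a part of the U7 particle, and Hinfp, an activator of H4 genes, were not called (adjusted p = 0.303 and 0.221, edgeR). Of 12 histone chaperones 10 differed, with a median distance of 0.52. Chaf1a, a subunit of the factor that loads H3 and H4 onto new DNA, ran from 0.441 ± 0.269 CPM in Cast (n = 7) to 6.69 ± 0.690 in NZO (n = 8). Nasp, a chaperone of H1 and H3, ran from 7.21 ± 0.508 in AJ (n = 8) to 13.9 ± 5.63 in Cast.

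Of the 20 S phase and proliferation genes 18 differed, with a median distance of 1.58. Uhrf1 ran from 0.463 ± 0.106 CPM in 129 (SD, n = 8) to 5.83 ± 2.05 in Cast (n = 7), and Mcm6, a subunit of the replicative helicase, from 0.774 ± 0.276 in 129 to 4.62 ± 0.782 in NZO (n = 8). In WSB, 9 of the 20 were higher and 0 lower (edgeR, adjusted p below 0.05), and 3 of the 19 tested histone members were higher and 9 lower, against 21.4% and 17% of all genes. In 129, 0 of the 20 were higher and 6 lower, and 6 histone members were higher and 1 lower, against 14.2% and 11.4% of all genes. Other strains did not all run this way. Cast had 6 of the 20 higher and 3 lower beside 12 and 0 histone members, NZO 1 and 3 beside 1 and 7, and B6 3 and 2 beside 5 and 2. AJ had 4 and 2 beside 2 and 8, NOD 0 and 5 beside 8 and 2, and PWK 3 and 2 beside 6 and 6. The shares of all genes for these strains are given with their contrasts above. The difference between these counts was not tested. All 10 tested lymphocyte markers were higher in WSB, and with their sum as a covariate the count of histone members called in 129 fell to 4.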

How the data were processed

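Poly(A)-selected RNA of 61 skeletal muscle libraries was analysed from a deposited table of expected counts (80.4% of the values whole), which were rounded here. The deposited variance-stabilised log2 values were used for 1 alternative. GRCm38 and DESeq2 are named in the submitters' processing notes, without a version or role. No aligner, counter or strand setting is named in the labels. Strains were compared in 1 edgeR 4.0.16 quasi-likelihood fit (R 4.3.3) with filterByExpr, TMM scaling and Benjamini-Hochberg adjustment over 16682 genes at 0.05, after the code was tested on simulated data. The SE given with a log2 difference is its absolute value divided by the square root of F, not an error estimated by the fit. Alternatives used limma 3.58.1, DESeq2 1.42.0, other filters and scalings, covariates and left-out libraries. Near-identical transcripts were found with BLAST 2.17.0 in GENCODE M21. The named genes were the 15 highest members, the 10 with the largest F, up to 4 called in each direction per contrast, and from each list up to 3 with the smallest and 2 with the largest adjusted p. The members and lists were chosen with earlier results of these data known, and 2 alternatives (without Cast_5 and Cast_6, and the Hist2h2aa1 and Hist2h2aa2 sum) after seeing the data.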

Additional observations from a re-analysis of the deposited data

Results flagged for a closer look

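In each strain, 19 tested members and 5 class sums were searched for a library that lies far from the rest of its strain. Such a library was found in 19 of 192 groups, 17 times as the highest and 2 times as the lowest, where chance gives about 1 in 20 groups for normally distributed values. Whether that rate holds for CPM near 0 was not tested. Levels are in CPM, with the nearest other library of the strain in parentheses.

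Among the Cast libraries, Cast_5 stood alone in Hist3h2a at 26.5 (13.7), Hist2h3c2 at 8.57 (2.9), Hist2h2bb at 13.7 (5.69) and Hist1h1d at 2.2 (0.824). Cast_6 stood alone in Hist1h3f at 0.902 (0.369), and Cast_3 in Hist2h2aa2 at 3.02 (0.836).

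In B6, library B6_5 was at 1.74 (0.283) in Hist4h4, B6_6 at 1.61 (0.409) in Hist2h2aa2 and B6_7 at 0.0724 (0) in Hist2h2bb. In NOD, NOD_7 was at 20.5 (17.3) in Hist1h4i and at 28.3 (23.4) in the H4 sum, NOD_3 was at 0.25 (0.087) in Hist1h2ap, and NOD_8 was low at 1.66 (2.66) in Hist2h3c2. In NZO, NZO_4 was at 1.05 (0.439) in Hist2h2bb, and NZO_8 was low at 1.13 (1.8) in the H3 sum. PWK_9 was at 6.68 (5.6) in Hist3h2a and PWK_4 at 1.57 (0.557) in Hist1h1d. WSB_4 was at 8.02 (5.35) in Hist1h2be and WSB_3 at 0.286 (0.127) in Hist4h4.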

How the results depend on the processing

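Of 785 recomputed counts of called members and class sums, 778 kept their value within the limits set, and 7 moved. With near-identical copies added together, the calls numbered 6 in AJ, 4 in 129, 4 in NOD, 5 in NZO and 7 in PWK, where fewer members are tested. With the lymphocyte sum as a covariate 4 members were called in 129, and with raw library totals the H2B sum in AJ was 35.8 CPM. The cause of these 2 was not tested. Of 5092 values of the 69 single-member results that the naming rule chose, 5037 kept direction and call, 43 lost the call and 12 turned, and 18 of the 69 lost their call at least once. All 12 came from adding copies, where a gene takes the value of its sum: with copies added, Hist2h2aa2 was at 0.0274 in AJ, 0.53 in 129 and -0.43 in NZO, Hist2h2aa1 at 0.0375 in NOD and -0.0633 in the wild-derived contrast, and Hist1h3d at 0.18 in NOD. With only Hist2h2aa1 and Hist2h2aa2 added, Hist2h2aa2 was at 0.11 in AJ, 0.45 in 129, -0.17 in NZO and 0.0205 in PWK, and Hist2h2aa1 at 0.17 in NOD and -0.17 in the wild-derived contrast. Leaving out 1 library at a time gave 7 to 11 calls in AJ, 7 in B6, 6 to 8 in 129, 10 to 11 in NOD, 7 to 8 in NZO, 9 to 13 in PWK, 11 to 13 in WSB, 10 to 13 in Cast and 7 to 10 for wild-derived against classical strains.

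Libraries of different strains share numbers in the labels. The deviations of 186 same-numbered pairs had a mean correlation of 0.036 (-0.564 to 0.705), 74 were over 0.1, and 8 libraries matched best with their own number, so the numbers were not taken to pair the libraries. With the number as a replicate block, 19 members were called among strains, 11 in AJ, 7 in B6, 8 in 129, 10 in NOD, 8 in NZO, 12 in each of PWK and WSB, 10 in Cast and 8 for wild-derived against classical strains. Members under the filter rest on few counts, so differences in them were often not detectable at this depth.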
